A study of Drosophila melanogaster with 25 samples.

Results

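The 4 genes described here encode neuropeptide F (NPF), its receptor NPFR, the short neuropeptide F precursor (sNPF) and its receptor sNPF-R. They were taken by name from the 17087 gene rows of a table of unique molecular identifier (UMI) counts in single neurons of adult Drosophila melanogaster brains, and all 4 had UMIs in clock neurons and in dopaminergic neurons (DANs). Dopaminergic neurons carrying TH-GAL4 driven EGFP were sorted into plates and sequenced by CEL-seq2 every 4 h from ZT02 to ZT22, 6 times in all, with 4 libraries at each time except ZT10, which had 3. A second set came from flies carrying TH-GAL4 and Clk856-GAL4 in a single stable line, so that clock neurons and DANs were sorted together, and it was run on the 10X Chromium droplet platform as 1 library at ZT14 and 1 at ZT02. All flies were kept in 12 h of light and 12 h of darkness, and males and females were used in equal numbers, and their age is not given in the sources used here. Both drivers leave out part of their population. Clk856-GAL4 labels few dorsal neurons of the DN3 group, and TH-GAL4 few DANs of the PAM cluster.

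In the 10X libraries a cell was taken as a clock neuron when tim, vri, Clk and cry together gave 3 or more UMIs and Vmat at most 1, and as a DAN when Vmat gave 5 or more and DAT 1 or more. These gates kept 517 clock neurons at ZT14 and 509 at ZT02, and 891 DANs at ZT14 and 1305 at ZT02. A further 888 cells at ZT14 and 1074 at ZT02 passed neither gate. The DAN gate kept 184 CEL-seq2 cells at ZT02, 221 at ZT06, 166 at ZT10, 149 at ZT14, 278 at ZT18 and 157 at ZT22.

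NPF and sNPF are unrelated precursors despite their names. NPF belongs to the family of vertebrate neuropeptide Y, is released as a single long peptide and acts on NPFR. The system is known for its roles in feeding, reward, alcohol sensitivity and sleep, and NPF is made by a subset of the lateral dorsal clock neurons. The sNPF precursor is cut into several short amidated peptides that act on sNPF-R, is made by very many neurons, among them small ventral lateral clock neurons that also make the peptide PDF, and is known for promoting feeding, growth and sleep. Both receptors are G protein-coupled. In the BDGP6 annotation (dm6) NPF (FBgn0027109) lies on chromosome 3R from 16609220 to 16611325 and NPFR (FBgn0037408) on 3R from 6187315 to 6195403, both on the plus strand. The sNPF gene (FBgn0032840) lies on the plus strand of 2L from 20027915 to 20056373, and sNPF-R (FBgn0036934) on the minus strand of 3L from 20058511 to 20089007. No gene on the same strand overlaps any of the 4.

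The 10X library at ZT14 held 2296 cells and 21264133 UMIs (median 8493 per cell) and that at ZT02 held 2888 cells and 19834146 UMIs (median 6180.5), with 0 cell barcodes in common. The 23 CEL-seq2 libraries held 52 to 79 cells and 548486 to 1197517 UMIs each. Levels are given as TP10K, that is, with all UMIs of a class in a library added up, how many of each 10000 belonged to the gene. Since the gate genes differ between the classes by construction, the classes were checked on markers outside the gates. The clock gene Pdp1 was at 155 TP10K at ZT14 and 38.1 TP10K at ZT02 in clock neurons, against 14.1 and 10.2 TP10K in DANs, but the core clock gene per went the other way, at 6.69 and 5.48 TP10K in clock neurons, against 9.30 and 13.3 TP10K in DANs. Tyrosine hydroxylase (ple) was at 0.711 and 0.503 TP10K in clock neurons, against 61.6 and 59.1 TP10K in DANs. The clock gate uses genes that themselves change with time. In clock neurons tim was at 19.4 TP10K at ZT14 against 2.15 TP10K at ZT02 and cry at 3.49 against 7.26 TP10K, so the clock cells kept at ZT14 and at ZT02 need not be the same neurons. DANs lack PDF, yet 43.4% of them at ZT14 and 48.0% at ZT02 had a Pdf UMI. No member reached that share of DANs, but Pdf was far more abundant than the receptors. It was at 43.1 TP10K of all ZT14 cells and 92.4 TP10K of all ZT02 cells, against 0.884 and 0.846 TP10K for sNPF-R. The clock neuron peptide genes Trissin and CCHa1 had a UMI in 7.41% and 0.561% of DANs at ZT14 and 5.36% and 3.52% at ZT02. What part of a member's share in DANs is background was not tested. The description thus rests on levels, on the richest cells and on differences between groups of cells. A cell past 20 TP10K of a peptide is no proof of expression either, since 1 DAN at ZT14 and 72 at ZT02 passed that level for Pdf, with 79.3% and 72.2% of the Pdf UMIs of DANs.

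NPF was much higher in clock neurons than in DANs in both 10X libraries. It was at 4.14 TP10K at ZT14 and 15.2 TP10K at ZT02 in clock neurons, against 0.0260 and 0.343 TP10K in DANs. An NPF UMI was seen in 16.6% (95% Clopper-Pearson interval 13.5% to 20.1%) of clock neurons at ZT14 and 17.1% (13.9% to 20.7%) at ZT02, and in 2.13% and 6.36% of DANs. The share of clock neurons with any NPF UMI was thus about the same at both times while the level was not. Clock neurons with at least 20 TP10K of NPF were 29 of 517 at ZT14 and 47 of 509 at ZT02. Of the other clock neurons 10.2% had an NPF UMI. With every cell thinned to 1000 UMIs the shares with an NPF UMI were 10.8% and 12.4% of clock neurons and 0.337% and 2.68% of DANs.

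sNPF followed the same order, with a smaller gap at ZT14. It was at 2.07 TP10K at ZT14 and 11.7 TP10K at ZT02 in clock neurons, against 0.897 and 0.702 TP10K in DANs. The shares of cells with an sNPF UMI were 20.3% (16.9% to 24.04%) and 27.9% (24.04% to 32.0%) of clock neurons, and 8.87% and 6.90% of DANs. After thinning they were 8.51% and 17.3% of clock neurons, and 3.82% and 2.84% of DANs.

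The gap between the classes was smaller for the receptors than for NPF. NPFR was at 0.434 TP10K at ZT14 and 0.207 TP10K at ZT02 in clock neurons, against 0.145 and 0.113 TP10K in DANs, and 18.4% and 12.97% of clock neurons had an NPFR UMI, against 10.1% and 6.74% of DANs. sNPF-R was at 1.27 TP10K at ZT14 and 1.45 TP10K at ZT02 in clock neurons, against 0.405 and 0.348 TP10K in DANs. An sNPF-R UMI was seen in 34.2% (30.1% to 38.5%) and 33.8% (29.7% to 38.1%) of clock neurons and in 17.7% and 14.1% of DANs. After thinning the sNPF-R shares were 8.90% and 11.98% of clock neurons and 3.25% and 3.68% of DANs. Clock neurons were the deeper class, with a median of 10154 UMIs at ZT14 and 8300 at ZT02, against 8465 and 6486 in DANs.

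**Figure D1:**
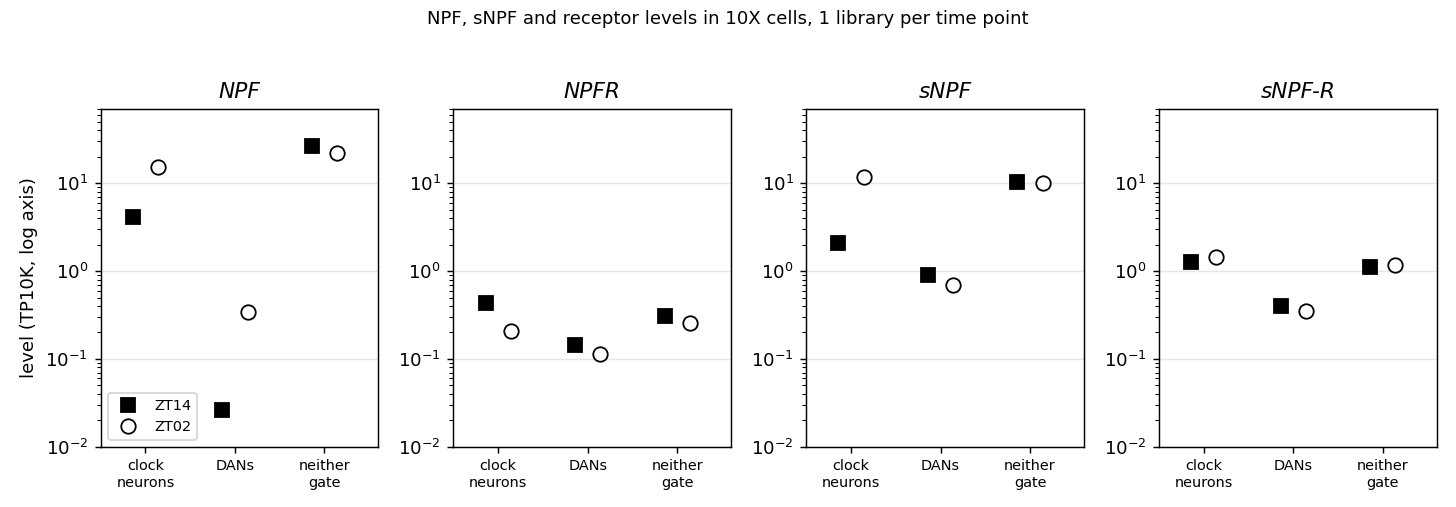
Level of each gene (TP10K, log axis) in 10X clock neurons, DANs and cells in neither gate, with ZT14 as filled squares to the left of ZT02 as open circles, 1 library each. Clock neurons lay above DANs for all 4 genes at both times, and the cells in neither gate held the highest NPF levels, 26.5 TP10K at ZT14 and 22.1 TP10K at ZT02.

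Summed counts of clock neurons and DANs were compared in a single fit over both libraries (edgeR's quasi-likelihood test with the library as a block, Benjamini-Hochberg adjustment over 7747 genes, with calls resting on both the adjusted p and a minimum fold). Of the 4 members 3 were called higher in clock neurons, where 18.1% of all genes tested were called, 11.0% higher and 7.13% lower. NPF was higher by 6.30 ± 0.55 (SE) on the log2 scale (edgeR adjusted p = 0.0227). sNPF-R was higher by 1.95 ± 0.16 (edgeR adjusted p = 0.0224) and NPFR by 1.34 ± 0.22 (edgeR adjusted p = 0.0410). For sNPF the estimate was 2.73 ± 0.89, and it was not called (edgeR adjusted p = 0.120); its log2 difference was 1.26 from the ZT14 library alone and 4.18 from the ZT02 library alone. The median over all genes was 0.01. The call on NPFR ended under a stricter gate, without the block and with DESeq2, and that on NPF ended without the block, where the edgeR adjusted p was 0.0501. Since the 2 libraries differ in time of day, these p-values measure the spread between 2 unlike libraries.

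Lists of genes that work with the members were read against the 18.1% of all genes that were called. Of 12 genes for peptide processing and release, 1 was called higher in clock neurons, 0 lower and 11 were not called (2 higher and 3 lower at an unadjusted p under 0.05 with edgeR), with a median log2 difference of 0.04. The gene called was Sytalpha, a synaptotagmin of neurosecretory vesicles, higher by 2.12 ± 0.21 (edgeR adjusted p = 0.0249). Of 12 genes for G protein and cAMP signalling, 1 was called higher, 2 lower and 9 were not called (1 higher and 5 lower at an unadjusted p under 0.05 with edgeR), with a median of -0.23. Galphai, an inhibitory G protein subunit, was higher by 3.80 ± 0.42 (edgeR adjusted p = 0.0275). Its levels were low, at 0.111 and 0.0478 TP10K in clock neurons at ZT14 and ZT02, against 0.00866 and 0.00322 TP10K in DANs. The G protein subunit Ggamma1 fell by 0.88 ± 0.11 (edgeR adjusted p = 0.0303) and the protein kinase A regulatory subunit Pka-R2 fell by 0.68 ± 0.12 (edgeR adjusted p = 0.0433). Of 12 genes for related RFamide and RYamide peptides and receptors, 10 could be tested, 0 were called higher, 1 lower and 9 were not called (1 higher and 3 lower at an unadjusted p under 0.05), with a median of -0.08. The gene called was Ms, the precursor of myosuppressin, at 0.0425 and 0.0614 TP10K in clock neurons at ZT14 and ZT02, against 16.8 and 16.8 TP10K in DANs.

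Fewer cells held 50% of the UMIs of each peptide gene than of each receptor. Cells with any UMI did not follow that order, with 397 for NPF, 908 for sNPF, 561 for NPFR and 1142 for sNPF-R. Over all 5184 10X cells, 5 cells held 50% of all NPF UMIs and the richest cell alone held 20.4%. For sNPF 61 cells were needed to reach 50%, for NPFR 135 and for sNPF-R 158. The genes differ in total, with 43403 UMIs of NPF, 21802 of sNPF, 949 of NPFR and 3558 of sNPF-R, and a gene with few UMIs per cell cannot be concentrated to the same degree. Among the 1026 clock neurons of both libraries, 18 cells held 50% of the NPF UMIs, 19 of sNPF, 31 of NPFR and 56 of sNPF-R. Among the 2196 DANs these numbers were 6, 13, 67 and 86.

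**Figure D2:**
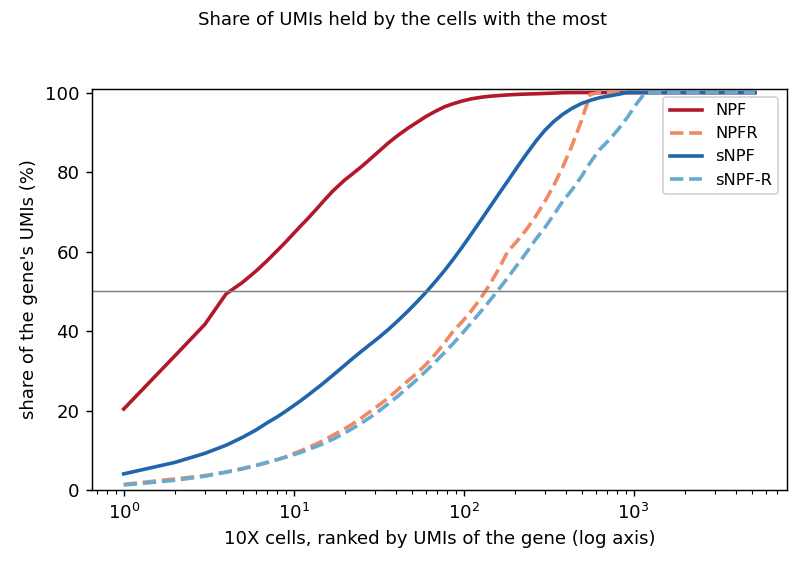
Cumulative share of a gene's UMIs (%) against the number of 10X cells ranked from the richest down (log axis), with a line at 50%. The NPF curve crossed the line at 5 cells, the sNPF curve at 61, the NPFR curve at 135 and the sNPF-R curve at 158 of 5184 cells.

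Cells with at least 20 TP10K were counted as rich in a peptide. NPF had 113 such cells, of which 76 were clock neurons (29 at ZT14 and 47 at ZT02), 9 were DANs (0 and 9) and 28 passed neither gate. sNPF had 321, of which 87 were clock neurons (22 at ZT14 and 65 at ZT02), 23 were DANs (12 and 11) and 211 passed neither gate. A single cell was rich in both, so the peptides marked almost separate sets of cells. The rich cells held 83.4% of the NPF UMIs of clock neurons at ZT14 and 97.0% at ZT02, and 71.3% and 93.7% of the sNPF UMIs. In the remaining clock neurons NPF was at 0.730 TP10K at ZT14 and 0.506 TP10K at ZT02 and sNPF at 0.617 and 0.898 TP10K.

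Part of the NPF-rich clock neurons also carried ITP, the ion transport peptide that marks part of the lateral clock neurons. An ITP UMI was seen in 28 of the 76 (36.8%), against 13.6% of the other clock neurons. ITP was at 731 TP10K over the 76 cells, against 4.30 TP10K in the other clock neurons, and 19 of the 76 had 20 TP10K of ITP or more. Over the same 76 cells fru, the sex determination gene known to be active in some NPF clock neurons, was at 10.5 against 4.14 TP10K. sNPF-R was at 0.188 against 1.46 TP10K. Seen from the other side, the 9 clock neurons at ZT14 and 15 at ZT02 that were gated on ITP had NPF at 34.3 and 116 TP10K, with an NPF UMI in 9 of 9 and 13 of 15, while their sNPF was at 0.357 and 0.0498 TP10K.

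The sNPF-rich clock neurons carried Pdf and Trissin. Pdf was at 1495 TP10K in them, against 131 TP10K in the other clock neurons, with 35 of 87 cells past 20 TP10K. Trissin, a peptide found in a pair of lateral dorsal neurons, was at 291 against 9.59 TP10K, with 23 of 87 cells past 20 TP10K. The photoreceptor cry was at 9.57 against 4.70 TP10K, though cry also served in the clock gate. The clock neurons gated on Trissin, 7 at ZT14 and 21 at ZT02, all had sNPF UMIs and held 31.7 and 52.6 TP10K. They had no NPFR UMI in 28 cells, which allows up to 10.7% of cells with a UMI, and sNPF-R at 0.119 and 0.0396 TP10K. Such a limit holds for cells with a UMI, not for cells that express the gene.

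In DANs the rich cells differed between the peptides. The 9 NPF-rich DANs had a median of 1516 UMIs, against 7141 in the other DANs, and held Pdf at 74.1 against 3.42 TP10K, ITP at 52.2 against 0.342 TP10K and ple, the enzyme that starts dopamine synthesis, at 6.61 against 60.3 TP10K. They were thus shallow barcodes with peptide RNA of clock neurons and little ple, and whether they were DANs was not tested. Without them NPF in DANs was at 0.0260 TP10K at ZT14 and 0.119 TP10K at ZT02. The 23 sNPF-rich DANs had ple at 56.5 against 60.3 TP10K and Vmat, the vesicular monoamine transporter, at 184 against 222 TP10K, close to the other DANs. Trissin was at 94.1 against 0.126 TP10K, with a UMI in 1 of the 23 cells. The clock genes tim and cry were at 0.938 against 0.0879 TP10K and 1.43 against 0.206 TP10K. Pdf, at 0.670 against 3.52 TP10K, and ITP, at 0.0893 against 0.391 TP10K, went the other way. Whether all 23 were DANs was not tested. The 23 cells held 69.5% of the sNPF UMIs of DANs at ZT14 and 56.3% at ZT02. They had no NPF UMI (0 of 23, which allows up to 13.04% of cells with a UMI) and an sNPF-R UMI in 1 of 23.

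NPFR never exceeded 14 UMIs in a clock neuron. It reached 3 or more UMIs in 28 of 517 clock neurons at ZT14 and 6 of 509 at ZT02, and in 3 of 891 and 4 of 1305 DANs. sNPF-R reached 3 or more UMIs in 75 and 76 clock neurons and in 39 and 38 DANs. An sNPF-R UMI was present in 78 of 161 clock neurons with an NPFR UMI (48.4%), against 31.3% of the other clock neurons, and in 44 of 178 DANs (24.7%), against 14.8% of the other DANs. The cells with NPFR were also deeper. Their median was 10453 against 8659 UMIs in clock neurons and 12258.5 against 6672 in DANs, and the part of depth in the overlap was not tested.

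The classes were then divided by other genes. A group held the cells with at least 20 TP10K of a peptide, or at least 3 UMIs of another gene, and groups with 10 or more cells in each library were tested against the remaining cells of their class in the same kind of fit. This gave 13 groups of clock neurons and 14 of DANs, which overlap, and a gene was not tested in the group it gated. Over all genes and all groups together 2.36% were called higher and 7.54% lower in clock groups, and 4.14% and 4.86% in DAN groups. In clock neurons NPF was called higher in 1 and lower in 11 of 12 groups, and sNPF higher in 2 and lower in 7 of 12. NPFR was called higher in 1 and lower in 5 of 13, and sNPF-R higher in 0 (also 0 at an unadjusted p under 0.05 with edgeR) and lower in 9 of 13. In DANs NPF was called higher in 1 and lower in 7 of 14, sNPF higher in 3 and lower in 8 of 13, NPFR in 0 of 14 (3 at an unadjusted p under 0.05 with edgeR) and sNPF-R higher in 7 and lower in 3 of 14. No other tool was run on the groups. Each fit rested on 4 sums, inside and outside the group in 2 libraries of unlike times, and left 1 degree of freedom. However small, its p-values do not measure a spread between replicates.

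sNPF was called higher in the clock neurons with Pdf, 25 cells at ZT14 and 51 at ZT02. It was at 4.70 TP10K at ZT14 and 32.6 TP10K at ZT02 in them, against 1.90 and 8.65 TP10K in the other clock neurons, a log2 difference of 2.07 ± 0.28 (edgeR adjusted p = 6.3e-05, with 4.36% of genes called higher in that group). In the same cells NPF was called lower, as were 10.2% of genes, with 0.513 and 0 TP10K against 4.37 and 17.4 TP10K. sNPF-R was at 1.24 and 1.27 TP10K in the Pdf cells, against 1.28 and 1.48 TP10K in the others, and was not called (edgeR adjusted p = 0.549). High sNPF at ZT02 was not particular to the Pdf cells. It was at 0.191 TP10K at ZT14 and 44.2 TP10K at ZT02 in the Nos clock group, where 3 of 40 ZT02 cells were past 20 TP10K. In the Dh31 clock group it was at 0.806 and 26.9 TP10K, with 29 of 114 ZT02 cells past 20 TP10K. Neither group was called for sNPF.

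Cells with Fer2, a transcription factor of some clock neurons and DANs, were the only clock group with both peptides called higher, and 3.47% of genes were called higher in it. sNPF was higher there by 2.14 ± 0.18 (edgeR adjusted p = 5.7e-07) and NPF by 1.35 ± 0.22 (edgeR adjusted p = 4.7e-04). Of its 60 cells 30 also lay in the Pdf group, 25 in the sNPF group and 11 in the NPF group. An NPF UMI was seen in 8 of 20 Fer2 cells at ZT14 and 11 of 40 at ZT02. Over all 10X cells 1 was rich in both peptides, so these calls do not place both in the same cells. With a gate of 5 UMIs the Fer2 group was too small to test. The sNPF group was not called for sNPF-R, at 1.252 TP10K at ZT14 and 0.952 TP10K at ZT02 against 1.27 and 1.55 TP10K outside it. The NPF group had sNPF-R at 0.119 and 0.237 TP10K, against 1.35 and 1.59 TP10K in the other clock neurons, and was called lower (edgeR adjusted p = 1.2e-05), in a group where 8.36% of genes were.

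Cells with CCHa1, the precursor of a dorsal clock neuron peptide, were called lower for all 4 members, where 7.46% of genes were called lower. sNPF-R was at 0.105 and 0.0648 TP10K in them, against 1.36 and 1.55 TP10K outside, a log2 difference of -4.03 ± 0.36 (edgeR adjusted p = 5.9e-04). Glutamatergic clock neurons, gated on the vesicular glutamate transporter VGlut, had sNPF-R at 0.541 and 0.519 TP10K, against 1.90 and 2.26 TP10K outside (edgeR adjusted p = 0.00301), and 10.3% of genes were called lower in that group.

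NPFR was called higher in clock neurons with Dh44, a diuretic hormone homologous to corticotropin-releasing factor. It was at 0.610 TP10K at ZT14 and 0.565 TP10K at ZT02 in them, against 0.413 and 0.176 TP10K outside, a log2 difference of 1.05 ± 0.30 (edgeR adjusted p = 0.0115, with 2.71% of genes called higher). This call was lost at a gate of 10 TP10K, where the log2 difference was 0.34 (edgeR adjusted p = 0.743). Allatostatin A cells (AstA) had 0.872 and 0.283 TP10K of NPFR, against 0.388 and 0.199 TP10K outside, and were not called (edgeR adjusted p = 0.209). Of the 34 clock neurons with 3 or more NPFR UMIs, 12 had AstC, 7 AstA and 6 Dh44, none had Pdf, Trissin, CCHa1, ITP, CNMa, Dh31, sNPF or Fer2 past its gate, and 20 lay in no group. Such cells were 3.31% of all clock neurons. They were 3.68% of the AstC, 7.14% of the AstA and 6.67% of the Dh44 cells, and 8.20% of the cells in no group. Of the 151 clock neurons with 3 or more sNPF-R UMIs, 45 had AstC, 21 VGlut and 19 Pdf, none had Trissin, CCHa1 or ITP, and 68 lay in no group. These 151 were 14.7% of all clock neurons. They made up 13.8% of the AstC, 4.46% of the VGlut and 25.0% of the Pdf cells, and 27.9% of the cells in no group.

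**Figure D3:**
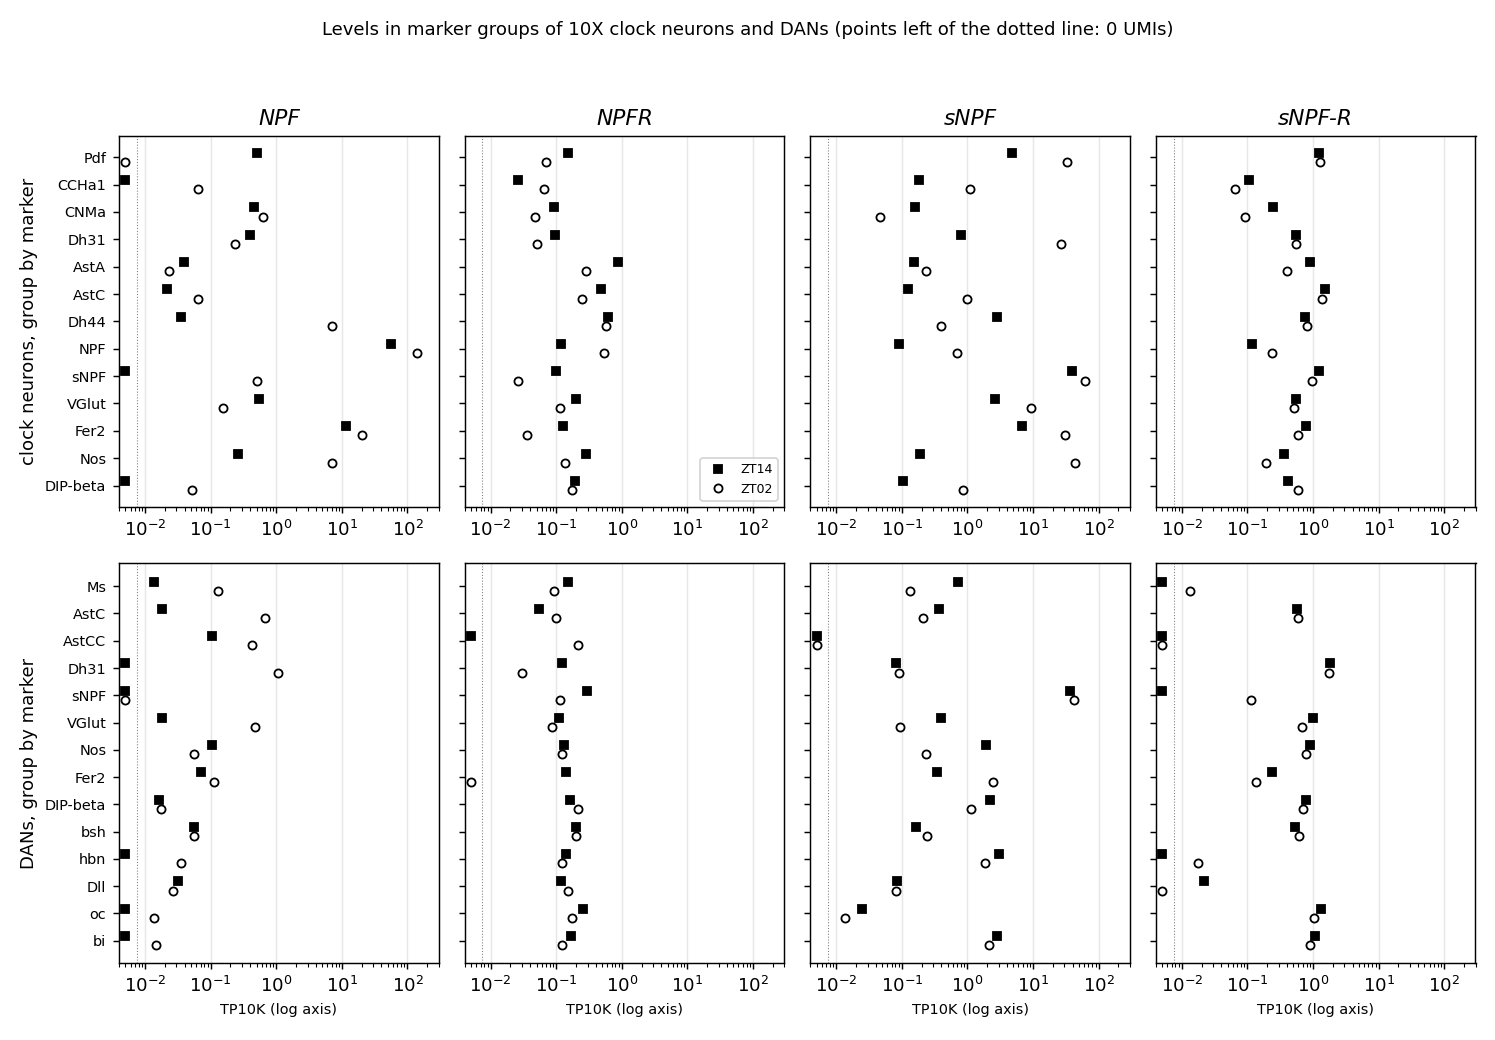
Level of each gene (TP10K, log axis) in 13 groups of clock neurons (top row) and 14 groups of DANs (bottom row) named by their gating gene, with ZT14 as filled squares above ZT02 as open circles and groups with 0 UMIs left of the dotted line. sNPF was called higher in the Pdf and Fer2 clock groups. At ZT02 it was also high in the Nos and Dh31 clock groups, which were not called. sNPF-R was high in the Dh31, oc and bi groups of DANs.

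Among DANs sNPF-R was called in 10 of 14 groups. It was highest in cells with Dh31, a calcitonin-like diuretic hormone, at 1.81 TP10K at ZT14 and 1.76 TP10K at ZT02, against 0.313 and 0.295 TP10K in the other DANs, a log2 difference of 2.57 ± 0.17 (edgeR adjusted p = 6.6e-05, with 1.41% of genes called higher). The groups of the transcription factors bi and oc followed. sNPF-R was at 1.09 and 0.913 TP10K in bi cells, a log2 difference of 2.08 ± 0.14 (edgeR adjusted p = 1.0e-09), and at 1.31 and 1.03 TP10K in oc cells, a log2 difference of 2.03 ± 0.16 (edgeR adjusted p = 7.9e-06). Of all genes 3.82% were called higher in the bi group and 3.08% in the oc group. The groups share cells, and the order among Dh31, bi and oc was not tested.

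It was also called higher in the groups of VGlut (1.46), Nos, the nitric oxide synthase (1.37), the cell adhesion gene DIP-beta (1.26) and AstC (0.88), all as log2 differences, where 6.84%, 1.78%, 3.71% and 7.76% of genes were called higher. It was called lower in cells with Ms, at 0 TP10K at ZT14 and 0.0132 TP10K at ZT02, in cells with the homeobox gene Dll, at 0.0214 and 0 TP10K, and in cells with the homeobox gene hbn, at 0 and 0.0177 TP10K. Of all genes 10.1% were called lower in the Ms group, 8.39% in the Dll group and 6.79% in the hbn group. No sNPF-R UMI and no sNPF UMI was seen in the 32 DANs with AstCC, which for each gene allows up to 9.38% of cells with a UMI. Of the 77 DANs with 3 or more sNPF-R UMIs 39 lay in the bi group and 21 in the Dh31 group. They made up 13.4% of the bi cells and 20% of the Dh31 cells, against 3.51% of all DANs.

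sNPF in DANs was called higher in the groups of hbn, bi and DIP-beta. It was at 3.01 TP10K at ZT14 and 1.84 TP10K at ZT02 in hbn cells, against 0.760 and 0.629 TP10K in the other DANs (log2 difference 1.85 ± 0.15, edgeR adjusted p = 4.0e-32), in a group where 5.31% of genes were called higher, and the call was lost at a gate of 5 UMIs. In bi cells it was at 2.78 and 2.12 TP10K, against 0.416 and 0.456 TP10K (2.50 ± 0.11, edgeR adjusted p = 3.0e-12). The bi group thus had both sNPF and sNPF-R called higher, whereas the hbn group had sNPF called higher and sNPF-R lower. Few cells carried the sNPF of these groups. In the bi group 20 of 147 cells at ZT14 and 14 of 145 at ZT02 had an sNPF UMI, 7 and 6 of them past 20 TP10K, and in the hbn group 5 of 32 and 6 of 44 had one, 2 and 1 of them past 20 TP10K. As an sNPF-R UMI was seen in 1 of the 23 sNPF-rich DANs, the calls on the bi group do not place both genes in the same cells. In oc cells, where sNPF-R was called higher, sNPF was at 0.0247 and 0.0134 TP10K, against 0.994 and 0.762 TP10K, and was called lower, as were 3.94% of genes. NPF was called higher in AstC DANs although it was lower there at ZT14, with 0.0182 TP10K at ZT14 and 0.668 TP10K at ZT02, against 0.0280 and 0.276 TP10K, and that call was lost at a gate of 40 TP10K. At ZT02 the group held 4 of the 9 shallow NPF-rich cells. NPFR had an adjusted p above the threshold in each of the 14 DAN groups, with a log2 difference between -0.80 and 0.90.

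With 1 library at each time, the 10X data allow a ratio of ZT14 to ZT02 with a 95% Poisson interval for counting error but no test of time. In clock neurons the peptides were lower at ZT14. NPF had a ratio of 0.272 (0.260 to 0.286) and sNPF of 0.176 (0.165 to 0.188), past 1.5-fold in a class where 6.77% of 7666 genes were lower by that much and 15.6% higher. NPFR had a ratio of 2.10 (1.64 to 2.70), also past 1.5-fold, and sNPF-R of 0.879 (0.788 to 0.981). The makeup of the gated clock cells differed between the times, with 25 against 51 Pdf cells and 7 against 21 Trissin cells at ZT14 and ZT02, but 73 against 47 CNMa, 171 against 155 AstC and 48 against 42 Dh44 cells. Within the Pdf cells the sNPF ratio was 0.145 (0.122 to 0.170). The direction was not the same in every group. Within the Dh44 cells the sNPF ratio was 7.09 (4.11 to 13.3), and within the VGlut cells the NPF ratio was 3.53 (2.39 to 5.36). Few cells lay behind these ratios. An sNPF UMI was seen in 10 of 48 Dh44 cells at ZT14, 4 of them past 20 TP10K, and in 8 of 42 at ZT02. In the VGlut group 12 of 228 cells at ZT14 had an NPF UMI, 1 of them past 20 TP10K, and 10 of 243 at ZT02. A single clock neuron at ZT02 held 898 of the 5159 sNPF UMIs of its class.

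In DANs the ratio of ZT14 to ZT02 was 0.0759 (0.0463 to 0.118) for NPF, whose ZT02 level was 0.119 TP10K without the 9 shallow NPF-rich cells, and 1.28 for sNPF (1.15 to 1.42). It was 1.28 for NPFR (0.978 to 1.69) and 1.16 for sNPF-R (0.994 to 1.36), both with intervals that include no change. Past 1.5-fold 5.22% of 7317 genes were higher and 6.31% lower in DANs, and from summed UMIs NPF was the only member past it. The sNPF ratio was 1.57 as a mean over cells and 1.67 with thinned cells, both past 1.5-fold, and that of sNPF-R turned to 0.826 with thinned cells. In the cells of neither gate the ratios were 1.20 for NPF, 1.20 for NPFR, 1.03 for sNPF and 0.949 for sNPF-R, none of them past 1.5-fold, where 5.08% of 7930 genes were higher and 9.92% lower.

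The CEL-seq2 libraries give replicates in DANs. NPF was absent or nearly absent in most of them. At ZT02 the libraries 1, 2, 3 and 4 held 74.5, 0.547, 5.18 and 0.0419 TP10K. At ZT14 libraries 5, 6, 7 and 8 held 0, 0, 0.766 and 0.353 TP10K, and at ZT10 libraries 17, 18 and 19 held 0, 0.0105 and 0 TP10K. Single cells carried these levels. In library 1 a single cell held 3223 of 3526 NPF UMIs, and in library 3 a single cell held 340 of 381. The other cells of these libraries had NPF UMIs as well, so that 43 of 43 DANs in library 1 and 27 of 53 in library 3 had at least 1. Without its richest cell library 1 was at 6.90 TP10K and library 3 at 0.570 TP10K. At ZT18 library 15 had 1.94 TP10K with a cell of 113 UMIs and an NPF UMI in 48 of 71 DANs. The source of the NPF UMIs in the other cells was not tested. The richest NPF cells of library 7 at ZT14 and library 4 at ZT06 also held 2281 and 1183 ITP UMIs. The library 7 cell had 146 tim, 2 ple and 1 DAT UMIs among 30400, and held 40 of the 49 NPF UMIs of its library. The library 4 cell had 0 tim and 5 ple UMIs. The richest cells of libraries 1 and 3 of ZT02 and 15 of ZT18 had 1, 0 and 0 tim and 4, 17 and 16 ple UMIs. Whether these cells were DANs was not tested.

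sNPF had UMIs in each of the 23 libraries. It averaged 1.69 ± 1.37 (SD, n = 4), 2.12 ± 0.947, 1.05 ± 0.794 (n = 3), 0.322 ± 0.119, 3.25 ± 3.82 and 2.65 ± 2.84 TP10K over the 6 times from ZT02 to ZT22. ZT14 had the lowest mean and the least spread, with 0.266, 0.456, 0.188 and 0.380 TP10K. At ZT02 the libraries held 3.70, 1.18, 1.31 and 0.586 TP10K. The difference between these times depended on the gate. Over all cells of the same libraries ZT14 held 2.71, 1.36, 0.273 and 0.591 TP10K, against 3.07, 1.17, 2.16 and 0.948 TP10K at ZT02. The late night libraries were spread widely. At ZT18 library 13 held 8.95 TP10K, against 1.73, 1.57 and 0.757 TP10K in the other libraries of that time, with a cell of 377 sNPF UMIs and UMIs in 66 of 71 DANs. At ZT22 library 13 held 6.62 TP10K, of which 1.72 TP10K remained without its richest cell.

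In TP10K the receptors covered a narrower range than the peptides over the 23 libraries, though not at every time. sNPF-R averaged 0.512 ± 0.207, 0.613 ± 0.239, 0.537 ± 0.350, 0.265 ± 0.183, 0.452 ± 0.319 and 0.671 ± 0.322 TP10K over the same times. The lowest library was at 0.0815 TP10K at ZT14 and the highest at 1.15 TP10K at ZT22. NPFR averaged 0.0477 ± 0.0229, 0.112 ± 0.0380, 0.0677 ± 0.00515, 0.0441 ± 0.0335, 0.0808 ± 0.00832 and 0.0982 ± 0.0674 TP10K over the same times, from 8 to 35 UMIs per time, and the filter on low counts left it out of the tests of time. With no filter its fitted peak to trough was 0.42 on the log2 scale (edgeR adjusted p = 0.901).

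**Figure D4:**
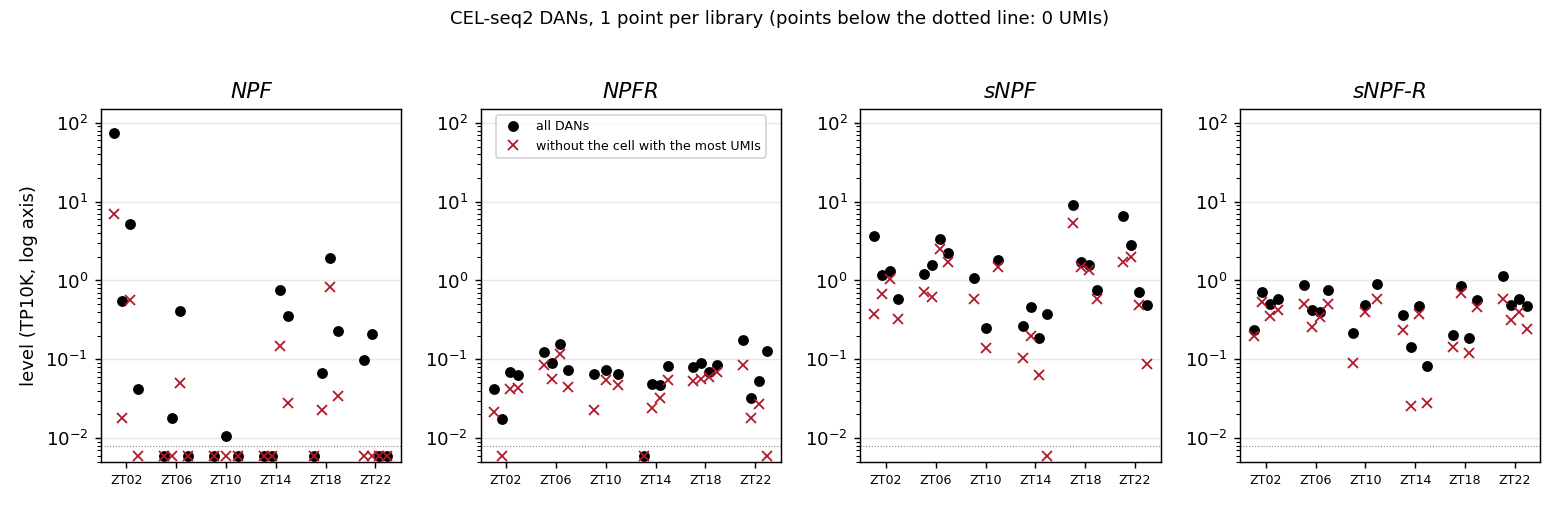
Level of each gene (TP10K, log axis) in the DANs of each CEL-seq2 library from ZT02 to ZT22, in black over all DANs and as red crosses without the cell with the most UMIs of the gene, with libraries at 0 UMIs below the dotted line. The NPF libraries at ZT02 ran between 0.0419 and 74.5 TP10K, and the sNPF libraries at ZT14 lay between 0.188 and 0.456 TP10K.

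A 24 h rhythm was tested over the CEL-seq2 libraries by a cosine and sine fit (edgeR's quasi-likelihood test, Benjamini-Hochberg adjustment over 5651 genes). A total of 91 genes or 1.61% passed the adjusted p of 0.05 with at least 1.5-fold from peak to trough, and before adjustment 946 had a p under 0.05. With the batch number of the titles as a block 1 gene was called, and NPF was not (edgeR adjusted p = 0.175). Of the 3 members tested 0 were called by edgeR and 0 by DESeq2, and 1, NPF, had an unadjusted p under 0.05. NPF had a fitted peak to trough of 7.23 on the log2 scale with a peak at 0.25 h (edgeR adjusted p = 0.0735). With the 6 times as separate levels NPF passed the threshold (edgeR adjusted p = 3.1e-04), and without library 1 of ZT02 its peak to trough was 3.58 (edgeR adjusted p = 0.437). It was 9.88 without library 7 of ZT14 (edgeR adjusted p = 0.0372), the only one of 23 libraries whose omission changed the call. sNPF had 1.77 with a peak at 22.8 h (edgeR adjusted p = 0.444) and sNPF-R 0.79 with a peak at 2.50 h (edgeR adjusted p = 0.588).

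The sample titles carry a batch number that is shared by ZT02 and ZT14, by ZT06 and ZT22 and by ZT10 and ZT18, so each of these pairs of times was compared within its number. What the number stands for is not stated. At ZT14 against ZT02, 0 of 3 members were called with edgeR and 0 with DESeq2, and 2, NPF and sNPF, had an unadjusted p under 0.05, where 0.0177% of all genes were called with edgeR, 401 genes had an unadjusted p under 0.05 and DESeq2 called 6. NPF was lower at ZT14 by a fitted log2 difference of -6.03 ± 1.61 (edgeR adjusted p = 0.360), sNPF of -2.46 ± 0.91 (0.563) and sNPF-R of -0.95 ± 0.56 (0.807). For sNPF the same contrast in 10X DANs had a ratio of 1.28, so the assays gave opposite signs. Over all TH-GAL4 cells the CEL-seq2 difference for sNPF was -0.65 ± 0.78 (edgeR adjusted p = 0.930). When the filter on low counts was left out, the fit called NPF (edgeR adjusted p = 2.2e-08) and sNPF (4.8e-04) lower at ZT14.

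At ZT22 against ZT06, 0 genes were called with edgeR (0% of 5651), 342 had an unadjusted p under 0.05 and DESeq2 called 8, none of them a member. The log2 differences were -0.52 ± 2.11 for NPF (edgeR adjusted p = 0.991), 0.33 ± 0.74 for sNPF (0.989) and 0.11 ± 0.50 for sNPF-R (0.995), each smaller than its error. At ZT18 against ZT10, 8.60% of genes were called with edgeR, 4.78% higher and 3.82% lower. Of the 3 members 0 were called by edgeR and 0 by DESeq2, and 1, NPF, had an unadjusted p under 0.05. NPF had 6.56 ± 3.01 (edgeR adjusted p = 0.182), where 3 of 4 libraries at ZT18 and 1 of 3 at ZT10 had any NPF UMI in DANs. sNPF had 1.70 ± 0.84 (edgeR adjusted p = 0.221), which was 0.29 without library 13 of ZT18. sNPF-R had -0.37 ± 0.53 (edgeR adjusted p = 0.718).

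Finally the genes with the most similar pattern to each member were listed, by Pearson r of log2(TP10K + 1) over the 27 groups, among 2570 genes. The groups overlap, share both libraries and some were gated on a member, so r is a description only. For NPF these were CG14340 (r = 0.93), CG13950 (0.90) and Fkbp14 (0.88). For sNPF they were Trissin (0.72), Nmdmc (0.68) and CG32944 (0.68). NPFR was followed by CG4629 (0.71), the allatostatin C receptor gene AstC-R2 (0.67) and ChT (0.67). sNPF-R was followed by CG7991 (0.72), bi (0.70) and Ntf-2 (0.67), of which bi gated a group itself.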

How the data were processed

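The authors deposited a table of raw UMI counts per gene and cell. Per the study's methods, CEL-seq2 reads were processed with zUMIs and 10X reads with Cell Ranger, exonic UMIs were kept, and cells of low quality and Scrublet doublets were removed before deposit, so no doublet caller was run here. The submitters' processing notes name dm6, Cell Ranger 6.0.2 and bcl2fastq 2.20. A further 2325 cell columns matched no sample and were not used. Spike-in rows were left out.

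Counts were summed over cells of a class per library, since cells are not replicates. The sums were tested with edgeR 4.0.16 in R 4.3.3, with DESeq2 1.42.0 as an alternative, and levels were computed in Python 3.11.15. Calls needed an adjusted p under 0.05 and a fold of 1.25 (peak to trough of 1.5 for time of day); 10X ratios across time were read at 1.5-fold with no p. Genes with low counts were filtered. Named genes were the 4 members, gate and marker genes, the 3 genes closest in pattern to each member and 3 lists. Members and lists were chosen with earlier results of these data known. Intervals are at 95% (Clopper-Pearson or Poisson) and cover counting error only. Nothing states that libraries came from separate flies, so p-values measure the spread between libraries. No library pair agreed within sampling noise (33 pairs, lowest chi-square per degree of freedom 3.78). Library numbers shared across times did not deviate together (8 pairs, r between -0.08 and 0.02 over 2000 genes). The scripts were tested on simulated data.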

Additional observations from a re-analysis of the deposited data

Results flagged for a closer look

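For each gene and time with 4 CEL-seq2 libraries, TP10K and the share of DANs with a UMI were examined for a library far from the others. Of 40 such sets of 4 values 6 were flagged. The rule's rate of 1 in 20 holds for independent, normally distributed values. The 2 measures are related and several libraries had no NPF UMI, so 6 of 40 cannot be read against it. For NPF the flagged libraries were library 1 of ZT02 at 74.5 TP10K, library 4 of ZT06 at 0.415 TP10K and library 15 of ZT18. The last was flagged by both measures, at 1.94 TP10K and with an NPF UMI in 67.6% of DANs. The others were library 13 of ZT18 for sNPF at 8.95 TP10K and library 13 of ZT22 for sNPF-R at 1.15 TP10K. The ratio of ZT14 to ZT02 for sNPF was 0.176 in 10X clock neurons and 1.28 in 10X DANs, in opposite directions, and with 1 library at each time the difference was not tested.

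The 10X cells that passed neither gate enter none of the tests, yet they held NPF at 26.5 TP10K at ZT14 and 22.1 TP10K at ZT02 and sNPF at 10.3 and 10.0 TP10K, above the levels in DANs. Their 28 NPF-rich cells had a median of 510 and a highest value of 3644 TP10K.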

How the results depend on the processing

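Values are log2 differences unless stated, p-values are edgeR's with Benjamini-Hochberg adjustment, and the cause of each change was not tested. In clock neurons over DANs NPF was 5.82 without the library block. NPFR lost its call under the stricter gates (1.20), without the block (1.41) and with DESeq2 (1.32), and sNPF gained one with cells thinned to 1000 UMIs (2.63). A single library gave, with no test, 5.59 to 7.22 for NPF, 0.98 to 1.62 for NPFR, 1.26 to 4.18 for sNPF and 1.71 to 2.18 for sNPF-R. The ZT14 to ZT02 ratios in 10X moved as follows. With stricter gates NPF was 0.239 in clock neurons and 0.122 in DANs and sNPF 0.204 in clock neurons. As a mean over cells NPF was 0.0283 in DANs, sNPF 0.264 in clock neurons and 1.57 in DANs, and sNPF-R 0.693 in clock neurons. With thinned cells NPF was 0.295 in clock neurons and 0.0280 in DANs, sNPF 0.263 and 1.67, and sNPF-R 0.660 and 0.826, the last turning the direction. Thinning also lowered each share of cells with a UMI, for NPFR to 3.48% and 1.57% of clock neurons at ZT14 and ZT02 and 1.12% and 0.766% of DANs. It took NPF to 10.8% and 12.4% of clock neurons and 0.337% and 2.68% of DANs, sNPF to 8.51% and 17.3%, and 3.82% and 2.84%, and sNPF-R to 8.90% and 11.98%, and 3.25% and 3.68%.

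For time of day 282 genes were called with no filter on low counts, 899 with the 6 times as a factor, 158 with DESeq2, 1 with the batch number of the titles as a block and 47 with the replicate block. Leaving out 1 library gave 45 to 117, with 45 without library 14 or 15 of ZT18 and 53 without library 16. NPF passed the threshold with no filter (7.24), as a factor (11.67), under the stricter gate (11.49) and without library 7 of ZT14 (9.88), and had 9.82 in the replicate block (adjusted p = 0.541), where the library numbers share only a number. Without the richest cells, an alternative chosen after seeing the data, it was 6.43 (adjusted p = 0.150). Leaving out 1 library gave 3.58 to 9.88 for NPF, 1.36 to 2.24 for sNPF and 0.58 to 1.06 for sNPF-R. At ZT14 over ZT02, 53 genes were called with no filter and 6 with DESeq2, and with no filter NPF (-6.05) and sNPF (-2.49) were called. Leaving out 1 library called 1 to 3 genes (2 without library 4 of ZT02, 3 without library 7 of ZT14), with NPF at -7.43 to -2.71, sNPF at -2.73 to -1.76 and sNPF-R at -1.48 to -0.66. Over all TH-GAL4 cells sNPF was -0.65. At ZT22 over ZT06, 78 genes were called with no filter, 12 over all TH-GAL4 cells and 8 with DESeq2. There NPF turned to 0.27 over all TH-GAL4 cells and sNPF to -0.35 without the richest cells. Leaving out 1 library called 0 to 0 genes, with NPF at -1.73 to 3.64, sNPF at -0.62 to 0.69 and sNPF-R at -0.25 to 0.35. At ZT18 over ZT10, NPF (6.57) and sNPF (1.70) were called with no filter. Leaving out 1 library called 214 (library 18 of ZT10) to 892 genes (library 13 of ZT18), and 293 without library 17 of ZT10 and 277, 272 and 287 without libraries 14, 15 and 16 of ZT18, with NPF at 4.12 to 8.29, sNPF at 0.29 to 2.49 and sNPF-R at -0.84 to 0.22.

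Of 297 alternatives on single marker groups 264 kept direction and call. With gates of 10 TP10K or 2 UMIs, NPF was called higher in 2 clock groups and 2 DAN groups, NPFR higher in 0 clock groups and 1 DAN group, sNPF-R higher in 1 clock group and lower in 6 DAN groups, and NPF in AstCC DANs (-0.15) and sNPF in Nos DANs (-0.20) turned. With gates of 40 TP10K or 5 UMIs, NPF was called higher in 0 clock and 0 DAN groups, NPFR in 0 clock groups and sNPF in 1 clock group. Those gates turned NPFR in the Fer2 (0.046), Nos (0.43) and hbn (-0.52) DANs, sNPF in Fer2 DANs (-1.77), NPF in VGlut DANs (-1.47), sNPF-R in AstC clock neurons (-0.79) and sNPF in Dh31 (-0.28) and VGlut (0.062) clock neurons. With no filter sNPF-R was lower in 5 DAN groups. NPFR, at 8 to 35 UMIs per time in CEL-seq2 DANs, was removed by the filter and tested without it (0.42, adjusted p = 0.901) and over all TH-GAL4 cells (0.46, adjusted p = 0.819). The 10X contrast of times has 1 library each, so no alternative gives it a replicate check.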

Other observations

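The peptide-rich cells in neither gate differed from each other in their other genes. The 28 NPF-rich cells held DAT, the dopamine transporter gene, at 9.49 against 1.20 TP10K in the remaining cells of neither gate. They held ple at 6.08 TP10K, Vmat at 0.591 TP10K and ITP at 166 TP10K, with an ITP UMI in 9 of the 28. The 211 sNPF-rich cells held DAT at 0.186 TP10K and Vmat at 0.267 TP10K. FMRFa, the precursor of FMRFamide peptides, was at 28.0 TP10K in them, with 25 cells past 20 TP10K. Corazonin (Crz) was at 31.1 TP10K, but only 1 of the 211 was past 20 TP10K of it. A Crz UMI was seen in 14 of them (6.64%), against 5.20% of the remaining cells. In CEL-seq2 the DANs richest in sNPF at ZT18, both in library 13, also held 20 and 19 UMIs of Ms.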
